A study of Mus musculus with 6 samples.

Results

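Tetraspanins are a family of small membrane proteins, and their messenger RNA was compared here between 3 cell populations of mouse spleen: macrophages and the CD8+ and CD8- kinds of conventional dendritic cell (cDC). The family was taken as every gene whose symbol in the probe annotation is Tspan followed by digits, together with Cd9, Cd37, Cd53, Cd63, Cd81, Cd82 and Cd151. This gave 26 of the 19057 genes on the array, each read from its probe of highest average signal. Tspan7 also meets the rule, had no named probe and was not analysed here. The study hybridised RNA from spleen cells of strain C57/B6 to Illumina mouse bead arrays, with 2 arrays for macrophages, 2 for CD8+ cDC and 2 for CD8- cDC. No group carried a treatment or an altered allele in the labels. The sources used here give neither the sorting strategy nor the mice's age. They also do not say whether replicates came from separate animals, so the p-values cover only the spread between these samples, which may be technical.

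A tetraspanin crosses the membrane several times and exposes a large outer loop. Tetraspanins gather integrins, proteases and immune receptors into patches called tetraspanin-enriched microdomains, and they are abundant on exosomes. In antigen-presenting cells they are known for organising MHC class II and pattern receptors at the surface, and a subgroup, TspanC8, escorts the protease ADAM10 to its substrates. Values below are log2 signals as deposited, means are given with the standard deviation (SD, n = 2), and differences are in log2 units with a standard error (SE). A gene was called when limma's adjusted p was under 0.05, with the adjustment over all 45281 probes. In bulk RNA of this kind, fewer cells expressing a gene and less RNA per cell cannot be told apart.

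The arrays fitted their labels by the defining markers, with exceptions that touch the results below. All 9 macrophage markers were called higher in macrophages than in cDC (the mean of the CD8+ and CD8- group means). Of 5 cDC markers, 4 were called lower. Between the cDC populations, 2 of 5 CD8+ cDC markers were called higher in CD8+ cDC. Of 5 CD8- cDC markers, 3 were called higher in CD8- cDC. The uncalled markers of these 2 lists differed in the direction of the label. Sirpa, a CD8- cDC marker, was highest in macrophages. Cd8a, a defining marker of CD8+ cDC, was above the background level on 1 of 2 CD8+ cDC arrays and on no array of the other populations, and Itgam was at background in macrophages. The background level was 5.25 log2, the 99th percentile of probes for sensory receptors and keratin-associated proteins. In cDC, the mean of the macrophage markers was 6.82 and 8.70 on the CD8+ arrays and 8.71 and 6.90 on the CD8- arrays, numbered 1 and 2 in that order. The mean of the T cell markers, 6 genes, was higher on array 1 than on array 2 in all 3 populations. It was 7.25 and 5.07 for macrophages, 6.36 and 5.30 for CD8+ cDC, and 6.67 and 5.54 for CD8- cDC. Cd5, at background on all 6 arrays, was instead lower on array 1 in each population.

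Of the 26 tetraspanins, 9 were called higher in splenic macrophages than in cDC and 3 lower. The 9 higher genes were Tspan4, Tspan15, Cd151, Tspan10, Tspan17, Cd82, Tspan14, Cd81 and Tspan6, and the 3 lower ones were Tspan2, Cd9 and Tspan33. Over all genes, 15.4% were called in this contrast, 8.22% as higher and 7.21% as lower. Called tetraspanins made up 46.2% of the family, with 34.6% higher and 11.5% lower. As for detection, 19 of 26 tetraspanins (73.1%) lay above background on both arrays of at least 1 population, against 48.6% of all genes. Among all detected genes 31.1% were called. The median difference was 0.38 over the family and -0.0023 over all genes. Of the 12 calls, 7 (Cd9, Cd82, Tspan2, Tspan4, Tspan10, Tspan15 and Tspan17) were made under every one of 11 other settings, and without single arrays 9 to 11 tetraspanins were called.

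Set against each cDC population alone, macrophages had 7 tetraspanins higher and 3 lower than CD8+ cDC, where 6.55% and 5.25% of all genes were called in those directions. Against CD8- cDC they had 9 higher and 2 lower, with 7.14% and 5.93% of all genes. Both comparisons use the same macrophage arrays. The 10 calls against CD8+ cDC (11.8% of all genes were called) became 6 when macrophage replicate 2 was left out, and 6 when replicate 1 of the CD8+ group was. The 11 calls against CD8- cDC (13.1% of all genes) became 7 when macrophage replicate 2 was left out, and 7 and 6 when replicates 1 and 2 of the CD8- group were. Between CD8+ and CD8- cDC, 1 tetraspanin was called higher, Cd81, and 0 lower, that is 3.85% of the family. Of all genes 2.04% were called there, 1.29% as higher and 0.756% as lower. With limma at the same threshold, that 1 call became 0 with a block on the replicate number.

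**Figure D1:**
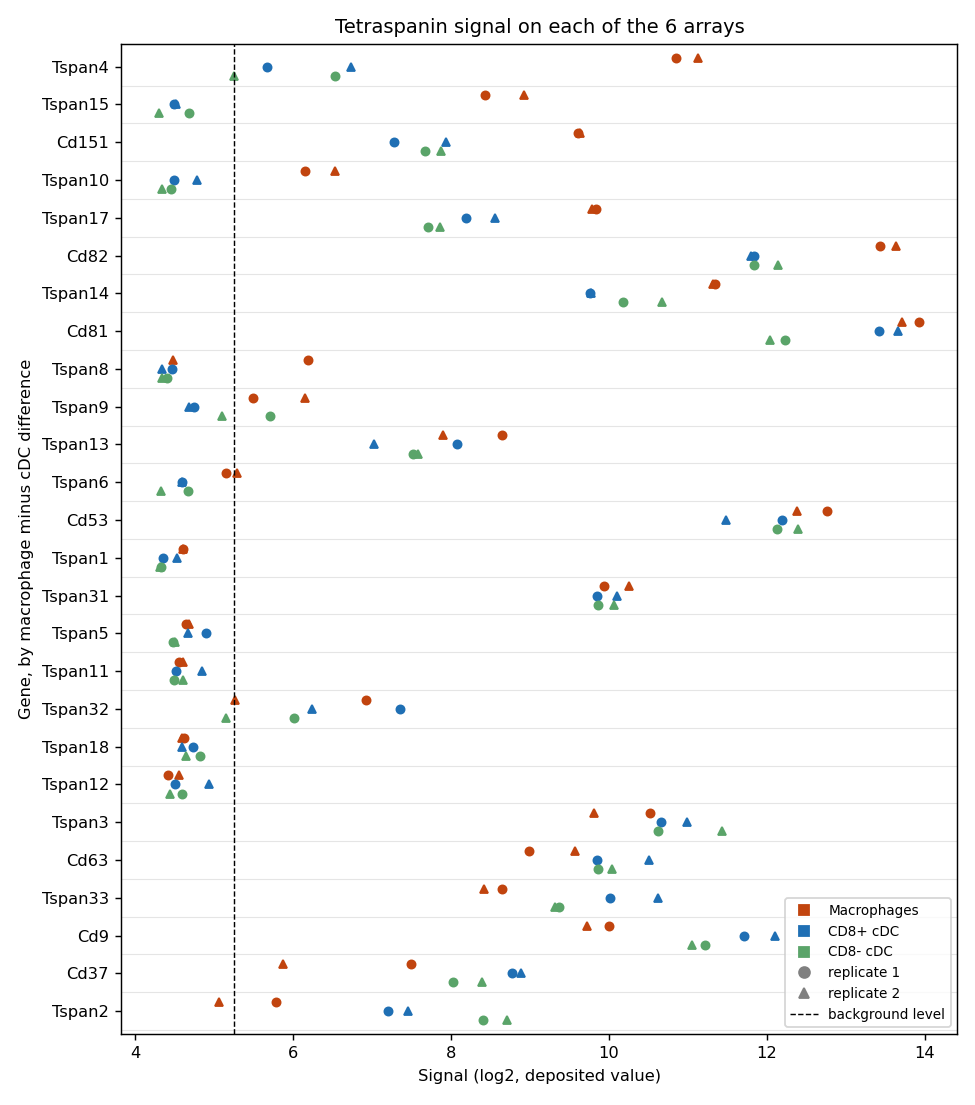
Signal of each of the 26 tetraspanins on the 6 arrays (log2, horizontal axis), with macrophages in red above CD8+ cDC in blue and CD8- cDC in green; circles are replicate 1 and triangles replicate 2, and the dashed line is the background level of 5.25. Genes are ordered by the macrophage minus cDC difference, and levels of different genes cannot be compared because each has its own probe. For Tspan4 and Tspan15 at the top, both macrophage arrays stand far right of all 4 cDC arrays, and for Tspan2 at the bottom both lie left of them.

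The TspanC8 group comprises Tspan5, Tspan10, Tspan14, Tspan15, Tspan17 and Tspan33, which bind the sheddase ADAM10 and direct where and on what it cuts. The grouping is textbook knowledge, and it was singled out after the values were seen. Of its 6 members, 4 were called higher in macrophages than in cDC, Tspan33 was called lower, and Tspan5 was at background on all 6 arrays. Of all genes 8.22% were called higher and 7.21% lower, and because the group was picked on these values its count is a description.

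Tspan15, which steers ADAM10 toward cadherins, had 8.43 and 8.92 in macrophages, against 4.49 and 4.51 in CD8+ cDC and 4.69 and 4.31 in CD8- cDC. All 4 cDC arrays were at background while both macrophage arrays were clear of it. The difference was 4.18 (SE 0.18, adjusted p = 0.00129), or at least 10.7-fold when cDC arrays are counted at the background level. A second Tspan15 probe read 7.59 and 8.34 in macrophages, was at background in all cDC arrays and differed by 3.24 (adjusted p = 0.00305). Tspan10, also called oculospanin after its expression in the eye, read 6.15 and 6.53 in macrophages, against 4.49 and 4.78 in CD8+ cDC and 4.46 and 4.34 in CD8- cDC. It too was detected in macrophages and not above background in either cDC population. It was at least 2.12-fold higher in macrophages (difference 1.82, SE 0.15, adjusted p = 0.00462).

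Tspan17 and Tspan14 were expressed in all 3 populations and highest in macrophages. Tspan17 had 9.84 and 9.79 in macrophages, 8.19 and 8.56 in CD8+ cDC, and 7.71 and 7.86 in CD8- cDC. It was 3.33-fold higher in macrophages than in cDC (difference 1.74, SE 0.13, adjusted p = 0.0037). Tspan14, which with ADAM10 regulates Notch signalling, had 11.34 and 11.31 in macrophages, 9.75 and 9.77 in CD8+ cDC, and 10.18 and 10.67 in CD8- cDC. The populations did not overlap, with CD8- cDC in between. The macrophage difference was 1.23 (2.35-fold, SE 0.15, adjusted p = 0.0114), and the call was lost without macrophage replicate 1 (adjusted p = 0.0559) and without replicate 2 (adjusted p = 0.0713).

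Tspan33, first described in erythroid progenitors and also expressed by activated B cells, ran the other way. It had 8.64 and 8.42 in macrophages, against 10.02 and 10.62 in CD8+ cDC and 9.37 and 9.32 in CD8- cDC. Every cDC array was above every macrophage array, and the CD8+ arrays were the highest. The difference between macrophages and cDC was -1.30 (2.46-fold lower, SE 0.19, adjusted p = 0.0182). The call was lost without macrophage replicate 1 (adjusted p = 0.0596), macrophage replicate 2 (adjusted p = 0.11), and replicates 1 and 2 of the CD8- group (adjusted p = 0.0665 and 0.0652). The 3 measured erythroid markers, Klf1, Slc4a1 and Alas2, ran opposite to it, with summed linear signals of 2181 to 7053 for macrophages, 262 to 634 for CD8+ cDC and 156 to 841 for CD8- cDC. Summed signals of the 5 measured B cell markers were 1584 to 2073 for macrophages, 1242 to 3097 for CD8+ cDC and 967 to 1566 for CD8- cDC. The part of other cells in the Tspan33 signal was not tested.

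Adam10 itself had 7.78 and 7.80 in macrophages, 7.22 and 6.73 in CD8+ cDC, and 7.60 and 6.92 in CD8- cDC. Its macrophage values were the highest, but the difference of 0.67 was not called (SE 0.24, adjusted p = 0.192). Of 8 genes in the list of ADAM10 and its substrates, 2 were called higher in macrophages and 1 lower, where 8.22% and 7.21% of all genes were. Fcer2a, the low-affinity IgE receptor (CD23) that ADAM10 sheds, was 1.95 higher (SE 0.13, adjusted p = 0.00305) by its brightest probe and 0.57, not called, by the mean of its 3 probes (adjusted p = 0.053), and Cd44, the hyaluronan receptor, 1.63 higher (SE 0.09, adjusted p = 0.00205). The mean over the 9 probes of Cd44 gave 0.69 (adjusted p = 0.00773). The transmembrane chemokine Cxcl16 averaged 8.48 ± 0.06 for macrophages, 11.43 ± 0.21 for CD8+ cDC and 10.16 ± 0.22 for CD8- cDC, a macrophage difference of -2.32 (SE 0.14, adjusted p = 0.00234). Notch1 (0.55), Cdh1 (0.35), Cx3cl1 (-0.27) and Notch2 (0.05) were not called, with adjusted p from 0.404 to 0.871. The probe of Notch2 was at background on all arrays and says little about that gene. Between CD8+ and CD8- cDC, Cxcl16 (1.28, adjusted p = 0.0455) and Cd44 (0.97, adjusted p = 0.0345, and adjusted p = 0.0594 with the replicate number as a block) were called higher in CD8+ cDC. With the mean of its probes Cd44 differed by 0.50 and was not called (adjusted p = 0.0793). Both of these calls were lost when any of the 6 arrays was left out, with adjusted p of 0.0929 to 0.185 for Cxcl16 and 0.0692 to 0.182 for Cd44.

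**Figure D2:**
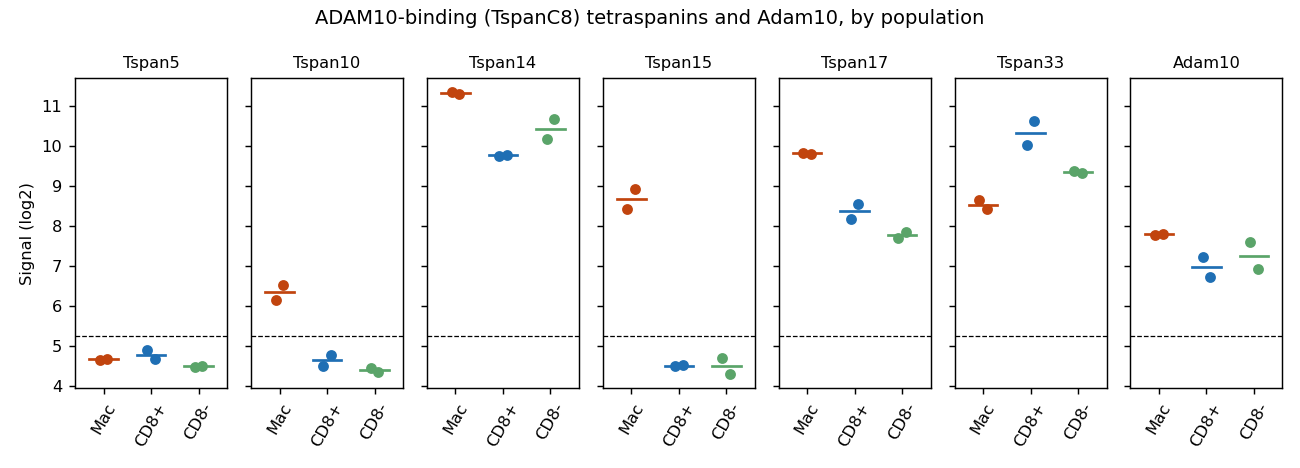
Signal (log2, vertical axis) of the 6 TspanC8 genes and Adam10 on each array, in macrophages (Mac, red), CD8+ cDC (blue) and CD8- cDC (green); points are arrays, bars are means of 2, and the dashed line is the background level. Tspan10 and Tspan15 are above background in macrophages and in neither cDC population, Tspan14 and Tspan17 are present in all and highest in macrophages, and Tspan33 is lowest there.

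Promoter sequences are shown for 3 genes that were clear in macrophages and at background on some or all cDC arrays, Tspan15, Tspan10 and Tspan4, and for Tspan2, the tetraspanin furthest toward cDC. They come from RefSeq on build GRCm38.p6, 250 bases before to 50 after an annotated start, and 25 of the 26 genes matched that table. The Tspan15 window is chr10:62231169-62231468 (minus strand), that of Tspan10 chr11:120442381-120442680 (plus strand), that of the second annotated start of Tspan4 chr7:141476130-141476429 (plus strand), and that of the first start of Tspan2 chr3:102734520-102734819 (plus strand). Tspan4 and Tspan2 have further annotated starts. The second start of Tspan4 is printed because motifs were found there and none at its first start, a choice made after the matches were seen. Capitals mark matches to any of 5 motifs searched on both strands, listed after the sequences, and Tspan2 has none.
Tspan15: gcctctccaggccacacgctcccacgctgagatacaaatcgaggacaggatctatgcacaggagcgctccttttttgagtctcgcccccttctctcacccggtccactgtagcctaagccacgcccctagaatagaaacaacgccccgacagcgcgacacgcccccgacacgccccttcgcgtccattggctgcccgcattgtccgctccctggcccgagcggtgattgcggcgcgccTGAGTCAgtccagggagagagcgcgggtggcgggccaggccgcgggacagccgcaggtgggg
Tspan10: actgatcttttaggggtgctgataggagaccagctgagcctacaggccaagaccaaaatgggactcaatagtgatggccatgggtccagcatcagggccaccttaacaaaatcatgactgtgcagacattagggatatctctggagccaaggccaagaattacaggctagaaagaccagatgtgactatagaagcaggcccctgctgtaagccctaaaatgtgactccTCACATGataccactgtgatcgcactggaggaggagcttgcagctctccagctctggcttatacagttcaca
Tspan4, second start: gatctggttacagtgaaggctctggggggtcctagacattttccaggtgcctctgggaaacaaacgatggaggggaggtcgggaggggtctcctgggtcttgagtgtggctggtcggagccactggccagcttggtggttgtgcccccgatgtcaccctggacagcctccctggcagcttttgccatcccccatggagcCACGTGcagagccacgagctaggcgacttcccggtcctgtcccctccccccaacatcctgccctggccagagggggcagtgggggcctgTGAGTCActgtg
Tspan2, first start: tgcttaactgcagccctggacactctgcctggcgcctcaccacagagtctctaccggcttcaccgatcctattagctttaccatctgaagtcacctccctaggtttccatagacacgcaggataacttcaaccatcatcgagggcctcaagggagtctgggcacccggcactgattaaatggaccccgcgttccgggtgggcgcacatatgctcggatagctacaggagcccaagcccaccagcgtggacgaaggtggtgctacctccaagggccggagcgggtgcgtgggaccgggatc

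The motifs were TGANTCA (AP-1), CACGTG (E-box), CATGTGA (M-box, bound by the MITF family), GAGGAA (a PU.1 core) and the composite ETS-IRF element, chosen after these windows had been read. TGANTCA stood at bases 239 to 245 of the Tspan15 window and 289 to 295 of the second Tspan4 window, counted from the 5′ end. Those were 2 of 35 tetraspanin promoter windows (5.71%), against 7.81% of all 32851 windows of this length. CATGTGA or its reverse complement stood at bases 229 to 235 of Tspan10, and was found in 5.71% of tetraspanin windows and 3.99% of all windows. CACGTG at bases 200 to 205 of the second Tspan4 window had shares of 5.71% and 7.15%. GAGGAA was in 28.6% of tetraspanin windows and 28.3% of all, and in none of the sequences printed, and the ETS-IRF composite was in 0 of 35 tetraspanin windows and 2.72% of all. The windows also differed in CpG dinucleotides, 29 for Tspan15, 1 for Tspan10, 29 and 8 for the first and second Tspan4 starts, and 17 and 19 for the first and second Tspan2 starts, against a median of 7 over all windows. A match of letters is a description and not a binding site.

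Tspan4, a protein that marks migrasomes, the vesicles left behind by migrating cells, showed the largest difference of the family. It had 10.85 and 11.12 in macrophages, against 5.67 and 6.74 in CD8+ cDC and 6.53 and 5.25 in CD8- cDC. Macrophages lay far above all cDC arrays, which spread widely within each population. Macrophages were at least 30.7-fold higher (difference 4.94, SE 0.47, adjusted p = 0.0063), where 1 CD8- array at the background level makes the fold a minimum. The higher cDC arrays, CD8+ replicate 2 and CD8- replicate 1, were also those with more macrophage marker RNA, with marker means of 8.70 and 8.71, against 6.82 and 6.90 on the other cDC arrays. Mertk, the efferocytosis receptor, had 7.09 and 6.88 on those same arrays and was at background on the other cDC arrays. The part of macrophage RNA in the Tspan4 signal of cDC was not tested. A second Tspan4 probe had 6.43 and 6.66 in macrophages and no cDC array above 5.30 (difference 1.37, adjusted p = 0.00453), and a further one was at or near background on all arrays.

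Cd151, which binds laminin-binding integrins and is parted from Tspan4 by 1 protein-coding gene on chromosome 7, had 9.61 and 9.64 in macrophages, 7.27 and 7.93 in CD8+ cDC, and 7.67 and 7.87 in CD8- cDC. It was detected everywhere, with macrophages above all cDC arrays and the cDC populations overlapping. Its difference was 1.94 (3.83-fold, SE 0.20, adjusted p = 0.00773), and 2 further probes were called as well, at 1.75 (adjusted p = 0.0158) and 1.63 (adjusted p = 0.0476). Without macrophage replicate 2 the call was lost (1.92, adjusted p = 0.0553). Platelets, which carry much Cd151 protein, were represented by 7 measured markers, 2 of them above background on both macrophage arrays (Pf4 and Clec1b) and 0 in either cDC population. Their summed linear signal was 588 to 719 for macrophages, 191 to 194 for CD8+ cDC and 184 to 190 for CD8- cDC. Clec1b, with 8.45 and 8.81 log2 in macrophages, made up most of the macrophage sum. The cDC sums came mostly from probes at background. The defining marker Gp1bb was at background on all 6 arrays. The part of platelet RNA in Cd151 was not tested.

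Cd82, also known as the metastasis suppressor KAI1, had 13.43 and 13.64 in macrophages, 11.84 and 11.80 in CD8+ cDC, and 11.84 and 12.14 in CD8- cDC. Both macrophage arrays stood above the 4 cDC arrays, which lay together. It was 3.09-fold higher in macrophages (difference 1.63, SE 0.12, adjusted p = 0.00383). Tspan6, a regulator of exosome release, was called at 0.67 (SE 0.12, adjusted p = 0.0341) with 5.15 and 5.28 in macrophages, 4.59 and 4.59 in CD8+ cDC, and 4.67 and 4.32 in CD8- cDC. A single macrophage array was just over background and all others were under it, so no fold is given. Its call was lost with the block (adjusted p = 0.0516) and without either macrophage array (adjusted p = 0.0937 and 0.174), either CD8+ array (adjusted p = 0.102 and 0.1) or replicate 2 of CD8- cDC (adjusted p = 0.0535).

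Tspan2, best known from oligodendrocytes, was the tetraspanin furthest toward cDC. It had 5.78 and 5.06 in macrophages, against 7.20 and 7.46 in CD8+ cDC and 8.41 and 8.70 in CD8- cDC. The 3 populations did not overlap, and 1 macrophage array was at background. Tspan2 was at least 5.36-fold lower in macrophages than in cDC (difference -2.52, SE 0.24, adjusted p = 0.00605). The step between the cDC populations, -1.23 for CD8+ minus CD8-, was not called (SE 0.27, adjusted p = 0.157).

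Cd9, an exosome marker that associates with MHC class II and is needed on the egg for fertilisation, had 9.998 and 9.72 in macrophages, 11.72 and 12.10 in CD8+ cDC, and 11.22 and 11.05 in CD8- cDC. All cDC arrays were above both macrophage arrays. Its difference was -1.66 (3.17-fold lower, SE 0.15, adjusted p = 0.00581), and it was lower against CD8+ cDC (-2.05, adjusted p = 0.00674) and against CD8- cDC (-1.28, adjusted p = 0.0183). The last of these calls was lost without macrophage replicate 2 (adjusted p = 0.0819), CD8- replicate 1 (adjusted p = 0.102) and CD8- replicate 2 (adjusted p = 0.0869). Platelets are rich in Cd9. The summed platelet marker signal given above was higher in macrophages, where it was mostly that of Clec1b and where Cd9 was lower. The part of platelet RNA in Cd9 was not tested.

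Cd37, a leukocyte tetraspanin that stabilises the fungal receptor Dectin-1, had 7.49 and 5.87 in macrophages, against 8.78 and 8.88 in CD8+ cDC and 8.02 and 8.39 in CD8- cDC. All cDC arrays were higher, but the macrophage arrays lay 1.62 apart and the difference of -1.83 was not called (SE 0.47, adjusted p = 0.0837). Without macrophage replicate 1 it was -2.64 (adjusted p = 0.00881). The mean of the cDC markers was also higher on that array, at 7.13, against 6.47 on macrophage replicate 2. It was 8.96 to 9.71 on the cDC arrays. Zbtb46 ran the other way, with 6.17 on macrophage replicate 1 and 6.47 on replicate 2. The other cDC markers were higher on replicate 1, most of all Mycl, with 9.47 and 7.78. Other lists differed between the macrophage arrays by at least the 0.66 of cDC markers, all with replicate 1 higher. These were neutrophils (by 2.34), T cells (2.18), erythroid cells (1.46), NK cells (1.19) and CD8+ cDC markers (0.99). Plasmacytoid dendritic cells (0.67) and plasma cells (0.66) were also among them. The part of RNA from any of these cells in its Cd37 signal was not tested. Clec7a, the gene of Dectin-1, was not called either (0.59, adjusted p = 0.18).

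**Figure D3:**
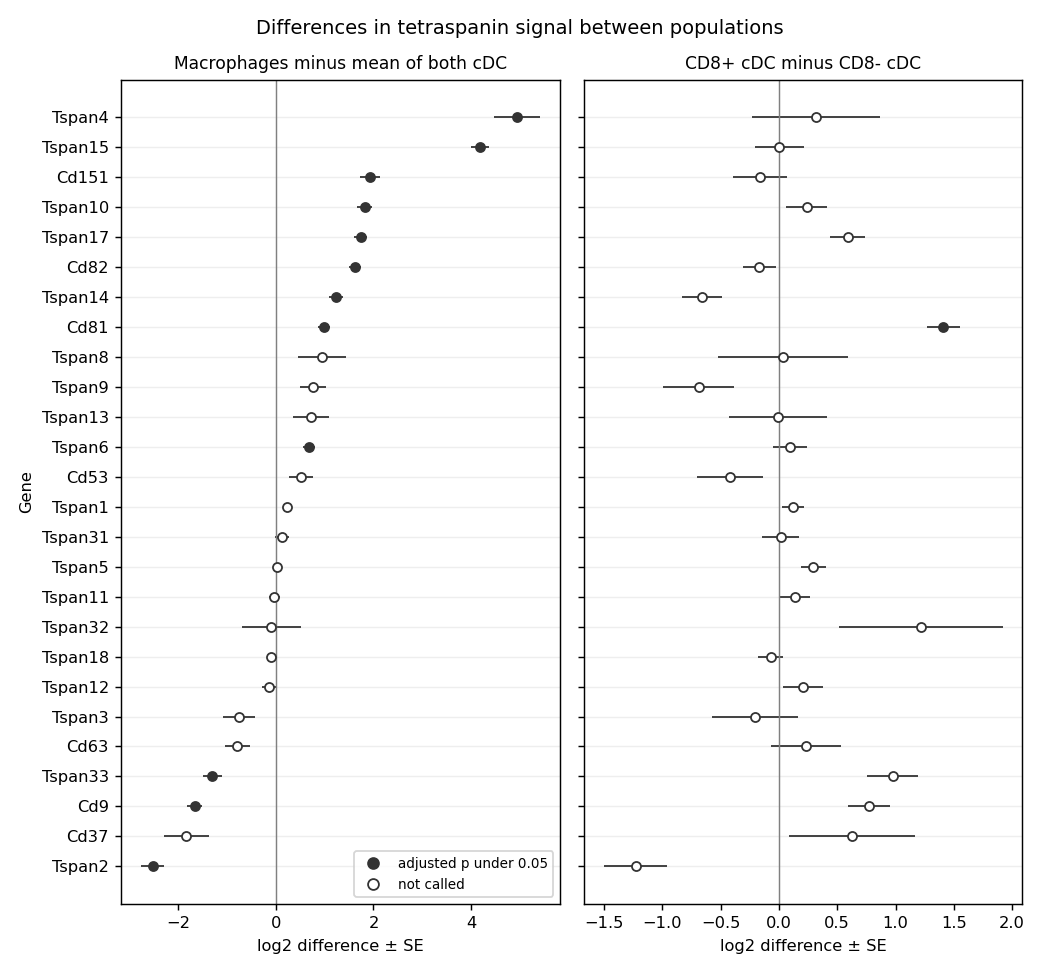
Differences of the 26 tetraspanins between macrophages and cDC (left) and between CD8+ and CD8- cDC (right), in log2 with the SE as bars; filled points are called at an adjusted p under 0.05, and the 2 horizontal axes have different scales. The left panel spans 4.94 for Tspan4 to -2.52 for Tspan2 with 12 filled points, whereas Cd81 at 1.41 is the single filled point on the right.

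Cd81, a widely expressed tetraspanin and an entry receptor of hepatitis C virus in humans, set the cDC populations apart. It had 13.93 and 13.72 in macrophages, 13.42 and 13.66 in CD8+ cDC, and 12.23 and 12.04 in CD8- cDC. CD8+ cDC were close to macrophages, and CD8- cDC lay below both. CD8+ cDC were 2.66-fold above CD8- cDC (difference 1.41, SE 0.14, adjusted p = 0.0293). Macrophages were 3.23-fold above CD8- cDC (1.69, SE 0.14, adjusted p = 0.00564), whereas against CD8+ cDC the difference was 0.28, with a 95% interval of 0.37 to either side, and was not called (adjusted p = 0.397). The call between the cDC populations ended with the replicate number as a block (adjusted p = 0.0501). It was also lost when any of the 6 arrays was left out, macrophages included, with differences of 1.29 to 1.53 and adjusted p from 0.0571 to 0.178. Against the mean of the CD8+ and CD8- group means, Cd81 was 0.99 higher in macrophages (adjusted p = 0.012). That call was lost without macrophage replicate 1, where the difference was 0.88.

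Besides Tspan2, given above, 7 tetraspanins differed between CD8+ and CD8- cDC by over 0.5 and missed the threshold. The differences were 1.22 for Tspan32 (SE 0.70, adjusted p = 0.697), 0.98 for Tspan33 (SE 0.22, adjusted p = 0.159), 0.77 for Cd9 (SE 0.18, adjusted p = 0.17), 0.62 for Cd37 (SE 0.54, adjusted p = 0.858) and 0.59 for Tspan17 (SE 0.15, adjusted p = 0.208). They were -0.69 for Tspan9 (SE 0.30, adjusted p = 0.522) and -0.66 for Tspan14 (SE 0.17, adjusted p = 0.227). On the probes used, the 2 arrays of CD8+ cDC did not overlap those of CD8- cDC for these 7 genes. Picking them for differences over 0.5 largely builds this in, and nothing is read from it. No share of all genes with such differences or such separation was taken. A second Tspan17 probe, above background on every array, gave -0.18 (adjusted p = 0.79). A second Tspan32 probe, above background on CD8+ replicate 1 alone, overlapped between the groups (0.38, adjusted p = 0.854).

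The remaining detected tetraspanins were not called in any contrast. Tspan31, a gene co-amplified in sarcomas, was the most even, with 9.94 and 10.25 in macrophages, 9.85 and 10.10 in CD8+ cDC, and 9.86 and 10.06 in CD8- cDC (difference between macrophages and cDC 0.13, SE 0.14, adjusted p = 0.74). In all 3 populations array 2 was the higher. Cd53, a tetraspanin of most leukocytes, had 12.76 and 12.38 in macrophages, 12.20 and 11.48 in CD8+ cDC, and 12.13 and 12.40 in CD8- cDC (0.52, adjusted p = 0.33). A second, dimmer Cd53 probe was called at 0.83 (adjusted p = 0.0156), so the probes disagreed on the call and not on the direction. Cd63, which sits in late endosomes and lysosomes, had 8.98 and 9.58 in macrophages, 9.85 and 10.51 in CD8+ cDC, and 9.87 and 10.04 in CD8- cDC. Both macrophage arrays lay below all cDC arrays, yet the difference of -0.79 was not called (SE 0.26, adjusted p = 0.157). With the replicate number as a block it was called (adjusted p = 0.0389), and 2 further probes without the block gave -0.59 and -0.46 (adjusted p = 0.0915 and 0.519).

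Tspan3, described in leukaemia stem cells, had 10.52 and 9.81 in macrophages, 10.66 and 10.98 in CD8+ cDC, and 10.62 and 11.43 in CD8- cDC (-0.76, adjusted p = 0.273). Tspan13 had 8.64 and 7.89 in macrophages, 8.07 and 7.02 in CD8+ cDC, and 7.52 and 7.59 in CD8- cDC (0.72, adjusted p = 0.373). Tspan9, a platelet tetraspanin, had 5.49 and 6.15 in macrophages, 4.74 and 4.68 in CD8+ cDC, and 5.71 and 5.09 in CD8- cDC (0.76, adjusted p = 0.173). Tspan9 was above background on both macrophage arrays, on neither CD8+ array and on 1 CD8- array. Of the 7 platelet markers, Pf4 and Clec1b were above background on both macrophage arrays and Itga2b, Treml1 and Gp9 on 1, while Ppbp and Gp1bb were at background on all 6 arrays. Among cDC, Gp9 was above it on 1 CD8+ array and Clec1b on 1 CD8- array. The part of platelet RNA in Tspan9 was not tested.

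Tspan32, a tetraspanin of blood cells that restrains T cell responses, followed the replicate number more than the population. It had 6.92 and 5.27 in macrophages, 7.36 and 6.23 in CD8+ cDC, and 6.01 and 5.15 in CD8- cDC. Array 1 was higher by 1.66, 1.13 and 0.85 in the 3 populations in that order, and no contrast was called (macrophages minus cDC -0.09, SE 0.61, adjusted p = 0.97). The T cell marker mean was higher on array 1 by 2.18, 1.06 and 1.14 in the same order. T cells were not alone in this: the marker means of neutrophils (by 2.34, 0.94 and 1.19), NK cells (by 1.19, 0.71 and 0.44), erythroid cells (by 1.46, 0.93 and 1.88), plasma cells (by 0.66, 0.46 and 0.69) and B cells (by 0.29, 0.73 and 0.34) were also higher on array 1 in all 3 populations. So were the means of cDC markers (by 0.66, 0.44 and 0.20) and of CD8+ cDC markers (by 0.99, 0.08 and 0.55). The part of RNA from any of these cells in Tspan32 was not tested. A second Tspan32 probe exceeded background on 1 of 6 arrays, CD8+ cDC replicate 1.

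**Figure D4:**
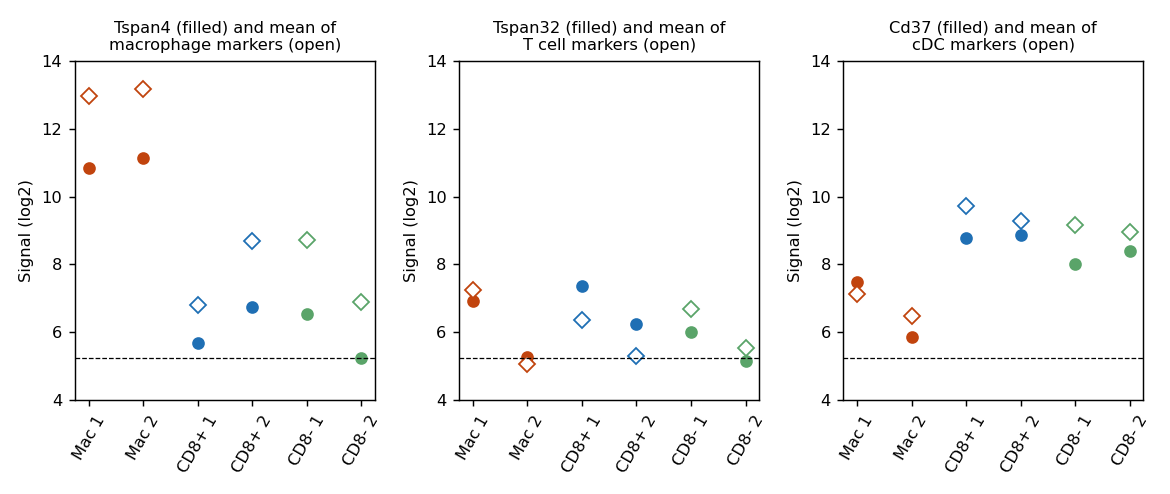
Signal (log2, vertical axis) on each array, macrophages (Mac) in red, CD8+ cDC in blue and CD8- cDC in green, of Tspan4, Tspan32 and Cd37 (filled circles) beside the mean of a marker list (open diamonds); the dashed line is the background level. In cDC, Tspan4 is higher on the arrays whose macrophage marker means are 8.70 and 8.71. Tspan32 is higher on array 1 of each population, as the mean of the T cell markers is. Cd37 and the mean of the cDC markers are both higher on macrophage array 1 than on array 2.

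In the 7 genes not above background on both arrays of any population, little can be said of expression. Tspan1, Tspan5, Tspan11, Tspan12 and Tspan18 were at background on all 6 arrays, at 4.31 to 4.93, and Tspan6 is given above. Tspan8, known from metastasis and normally a gene of epithelia, had 6.19 on macrophage replicate 1 and 4.47 on replicate 2, against 4.47 and 4.33 in CD8+ cDC and 4.40 and 4.34 in CD8- cDC (0.95, SE 0.48, adjusted p = 0.375). Without macrophage replicate 2 the difference was 1.80 and called (adjusted p = 0.0131), so the value rests on 1 array.

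For 12 tetraspanins the array held over 1 probe. All probes were called in the direction of the gene for Tspan15 and Cd151. For Tspan17, the probe used and a second one were called (1.74 and 0.99, adjusted p = 0.0037 and 0.00827), while a further one, above background on 1 array, was not (0.13, adjusted p = 0.865). For Tspan6 the second probe was not called (0.41, adjusted p = 0.403). The further probes of Tspan3 (-0.08, adjusted p = 0.902) and Tspan31 (0.18, adjusted p = 0.597) were not called, as was the case for the probes used. In none of the 12 genes were probes called in opposite directions between macrophages and cDC.

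**Figure D5:**
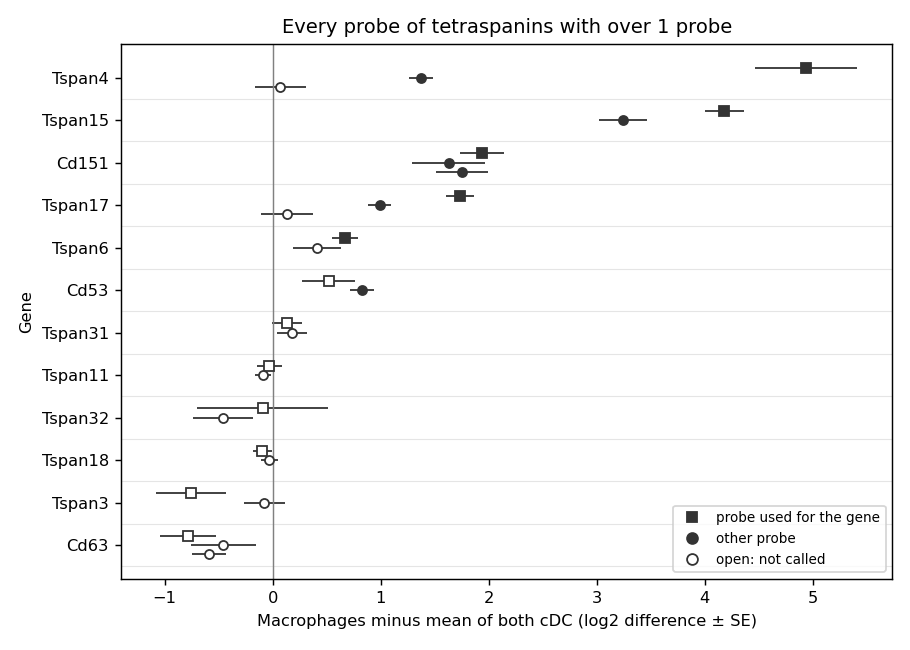
Macrophages minus cDC (log2 difference, bars are the SE) for every probe of the 12 tetraspanins with over 1 probe; squares are the probes used for the gene, circles the other probes, and open symbols were not called. The probes of Tspan15 and Cd151 lie together on the right, whereas 1 probe of Tspan4 (0.07) and 1 of Tspan17 (0.13) lie near 0.

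Of 15 measured genes of known tetraspanin partners, 2 were called higher in macrophages than in cDC and 1 lower. These 3 calls are a share close to the 15.4% of all genes, and nothing about the partners as a group is read from them. The 2 higher were Cd44, given above, and Sdcbp (syntenin), an adaptor that links Cd63 and syndecans to exosome formation, which averaged 12.75 ± 0.02 for macrophages, 11.40 ± 0.05 for CD8+ cDC and 11.31 ± 0.06 for CD8- cDC (difference 1.39, SE 0.07, adjusted p = 0.00171). The lower was the integrin subunit Itga3, a partner of Cd151, which averaged 6.46 ± 0.27 in CD8+ cDC and was at background on all other arrays. Its macrophage difference was -1.13 (adjusted p = 0.0106), and the call was lost without macrophage replicate 1 or 2 (adjusted p = 0.0515 and 0.0683). Itga3 was called higher in CD8+ than in CD8- cDC (1.81, adjusted p = 0.0226), a call lost when any of the 6 arrays was left out (adjusted p from 0.0564 to 0.156). The partner subunits Itgb1 (0.25, adjusted p = 0.51) and Itga6 (-0.15, adjusted p = 0.499), the Cd9 and Cd81 partners Igsf8 (0.79, adjusted p = 0.124) and Ptgfrn (-0.01, adjusted p = 0.965), and the exosome genes Pdcd6ip (0.36, adjusted p = 0.551) and Tsg101 (0.25, adjusted p = 0.745) were not called. The probes of Itga6 and Ptgfrn were at background on all arrays.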

How the data were processed

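Illumina bead array signals of 6 spleen samples were used as the authors deposited them in the series' value table. These are log2 values, a base inferred from their range, and the deposited columns have nearly the same distribution. BeadStudio and limma appear in the submitters' processing notes, with no version and no role. How background and normalization were handled is not given in the sources used here. A second deposited table, with 12 columns of signals and detection p-values, has column names that match no sample's labels and was not used.

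Probes were named by the platform annotation: 34885 had 1 gene symbol, 18 several and 10378 none. Groups and replicate numbers came from the sample titles. A linear model with a coefficient for each population was fitted to all 6 arrays (limma 3.58.1 under R 4.3.3, functions lmFit and eBayes, 3 residual degrees of freedom), and p-values were adjusted by Benjamini and Hochberg over 45281 probes. Where an array of the dimmer side of a called gene was at or under the background level, it was counted at that level and the fold given as a minimum. The 2 arrays per group limit the precision of every value. The fit was also run on simulated data with errors drawn independently for each array. That run cannot speak to errors shared by arrays with the same replicate number.

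The members and lists were chosen with earlier results of these data known. Values are printed for every member called in a contrast or above background on both arrays of a population, and for others by range. In the lists of partners, substrates and further superfamily genes, up to 4 called genes were to be named, and the uncalled ones named there were chosen after their values were seen. Alternatives were a block on the replicate number, a filter on dim probes, means over a gene's probes, a repeated quantile normalization, a variance trend and leaving out each array.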

Additional observations from a re-analysis of the deposited data

How the results depend on the processing

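Between macrophages and cDC, 12 to 14 tetraspanins were called under the settings that kept all arrays and 9 to 11 when 1 array was left out. Against CD8+ cDC the count of 10 became 6 to 11 without single arrays, and against CD8- cDC the count of 11 became 6 to 10. The labels number the replicates 1 and 2 in each group and do not state what a number stands for. Replicate differences correlated at 0.421, 0.281 and 0.287 between the groups over 15952 probes, so the numbers may pair the arrays, which the labels do not state. With the number as a block, 12, 11 and 9 tetraspanins were called in these contrasts, and the 1 call between CD8+ and CD8- cDC, Cd81, became 0. That count was also 0 to 0 without single arrays, where fewer arrays leave 2 residual degrees of freedom and a lone array is assumed to vary like the others. No called difference changed sign under any alternative run; 35 sign changes were of uncalled differences. In macrophages minus cDC, Cd37 was also called with the filter on dim probes (adjusted p = 0.0134) and with the variance trend (adjusted p = 0.00448), and Cd53 with the mean of its probes (0.67, adjusted p = 0.0151). With the lower background level of 4.91, the minimum fold was 13.6 for Tspan15 and 2.70 for Tspan10. A start from the scanner signals was not run because their columns could not be mapped to samples.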

Other observations

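Several tetraspanin genes are neighbours on their chromosomes, by the order of protein-coding genes in RefSeq's mouse assembly GRCm38.p6. Tspan18 and Cd82 on chromosome 2 have 0 such genes between them, and Cd82 was called higher in macrophages while Tspan18 was at background on all 6 arrays. Tspan32 and Cd81 on chromosome 7 are adjacent too, and of these only Cd81 was called in any contrast. Tspan9 and Tspan11 on chromosome 6 are adjacent, neither was called, and Tspan11 was at background. Cd151 and Tspan4 on chromosome 7 have 1 gene between them and were both called higher in macrophages, by 1.94 and 4.94.

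Of 4 superfamily genes outside the naming rule, 0 were called in any contrast. Over all genes, 15.4% were called between macrophages and cDC and 2.04% between CD8+ and CD8- cDC. For macrophages against CD8+ and CD8- cDC alone the shares were 11.8% and 13.1%. With 4 genes, of which Upk1b and Prph2 were above background on no array, nothing is read from this count. The uroplakins Upk1a and Upk1b of bladder epithelium differed between macrophages and cDC by 0.45 and 0.01 (adjusted p = 0.179 and 0.974), and the photoreceptor genes Rom1 and Prph2 by -0.38 and -0.13 (adjusted p = 0.0857 and 0.443). Rom1 was above background on 1 of 2 macrophage arrays and on all 4 cDC arrays, at 5.90 and 5.91 in CD8- cDC.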
